A study of Arabidopsis thaliana with 6 samples.

Results

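Genes of phenylpropanoid, flavonoid and anthocyanin metabolism were compared between Arabidopsis thaliana seedlings that overexpress sORF2146 and seedlings that carry an empty vector. The 35 genes were taken as the probes, other than controls, whose name on the array contains 1 of 35 listed locus identifiers, among 35475 gene identifiers in all. Each locus had 1 probe. The list holds 19 enzymes and transport proteins and 16 regulators. The series asks for the physiological role of sORF2146, which its title places in flowering and traces to the mitochondrion.

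The overexpressor group, labelled sORF2146ox, and the group with the empty pMDC32 vector each had 3 biological replicates, with 1 one-colour array per replicate. All plants were transgenic, and seedlings were harvested at 14 days, after growth on solid MS medium with 14 hours of light and 10 hours of darkness. pMDC32 is a binary vector that drives an inserted sequence from a strong constitutive viral promoter, so the vector controls share the backbone and its selection marker with the overexpressor. The accession, the number of independent lines and the number of seedlings in a sample are not given in the sources used here. In whole seedlings a lower signal from fewer cells of a type and one from less RNA per cell cannot be told apart.

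The pathway starts when phenylalanine ammonia-lyase turns phenylalanine into cinnamate, which is hydroxylated and joined to coenzyme A before it enters lignin, sinapate esters or flavonoids. Chalcone synthase opens the flavonoid branch, and its products run through chalcone isomerase and flavanone hydroxylases to the dihydroflavonols. There the branch divides: flavonol synthase makes flavonols, the colourless sunscreens, and dihydroflavonol reductase opens the way to the red and purple anthocyanins. Early steps are switched on by the related factors MYB11, MYB12 and MYB111. Late steps need a complex of a MYB protein such as MYB75 or MYB90, a bHLH protein such as TT8, GL3 or EGL3, and the WD-repeat protein TTG1, and small MYB proteins such as MYBL2 hold that complex back.

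The number of probes flagged as well above background ran from 23270 to 24510 per array, and no probe that is not a control was saturated. The overexpressor arrays shared 1 slide and the control arrays another, which means that an effect of the slide and one of the group cannot be told apart. Across genes the control arrays correlated with each other at 0.969 to 0.989 and the overexpressor arrays at 0.988 to 0.994. Of 6 leaf markers all were well above background on every array, and their summed signal, in multiples of the 75th percentile of the array, was 351 to 399.9 in the overexpressor and 385 to 414 in the control. The summed signal of 9 root markers was 94.1 to 115 and 91.8 to 128. That of 3 flower markers was 0.0179 to 0.0513 and 0.0343 to 0.176, and none of the 3 was well above background on all 6 arrays. That of 5 seed markers was 0.0294 to 0.0597 and 0.0631 to 1.80, with the storage protein genes CRA1 and SESA3 not well above background on any array. The leaf, root and flower sums overlapped between groups and the seed sum did not. Among the seed markers EM1 was not well above background in the overexpressor and reached 0.80, -1.77 and -5.47 on the control arrays (log2 signal, as defined below), while EM6 overlapped. The root sum is largely that of PYK10, at 6.34 to 6.67 on the same scale, and says little of the other root markers. Of the 9, TIP2;3 was lower without overlap (difference -1.81), CASP1 was higher without overlap (0.92) and 7 overlapped. For CASP1 the lowest overexpressor signal, 2.22983, all but met the highest control signal, 2.22945. Vector control replicate 1 lay far below the other control arrays for CASP1, at 0.09. Over all genes tested, 17.6% were lower without overlap and 23% higher. The part of these markers in the results below was not tested.

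Signals are given on the log2 scale relative to the 75th percentile of all probes on the same array, so that 0 is the level of that percentile. A difference is the overexpressor mean minus the control mean. Of the 35 genes, 34 reached that flag in every array of either group or of both and were tested. 5MAT (AT3G29590), which adds malonate to anthocyanin sugars, was well above background on 0 overexpressor arrays and on 2 control arrays and was not tested. Its signals were -6.99, -6.55 and -7.42 in the overexpressor and -7.38, -6.38 and -6.13 in the control, and they overlapped. Of the 34, 4 fell and 1 rose at an adjusted p under 0.05 in limma. Over all 23394 genes tested, 2.65% fell and 2.51% rose, 5.17% together. At an unadjusted p under 0.05 in limma, 8 of the 34 were lower and 1 was higher, where 14.3% of all genes were lower and 16.5% higher, and the counts at that threshold for each step below are to be read against those shares. The 4 that fell were the reductase gene DFR, the dioxygenase gene LDOX, the carrier gene TT19 and the bHLH gene TT8, and the one that rose was MYBL2. The median difference was -0.14 over the 34 genes and 0.03 over all genes tested. All 18 tested enzyme and transport genes had a difference below 0, with a median of -0.29, while the 16 regulators had a median of 0.05 with 6 below 0. Of the 23394 genes tested, 10758 had a difference below 0. Genes measured on the same 6 arrays are not independent observations, here and in the counts below 0 by step. The signal did not overlap between groups for 10 genes that were lower and 1 that was higher, where 17.6% of all genes were lower without overlap and 23% higher, 40.6% together.

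The calls depended on single arrays. The count of pathway genes that fell was 0 without overexpressor replicate 1, 2 or 3 and 0 without vector control replicate 2, where the genes at an unadjusted p under 0.05 that were lower numbered 9, 8, 8 and 8 in limma, and 11.8%, 10.2%, 9.98% and 10.9% of all genes were lower. In those 4 fits the calls over all genes also dropped, from 1209 to between 35 and 51. MYBL2 did not pass in those 4 fits either. Without vector control replicate 1, 7 genes fell, which were DFR, LDOX, TT19, TT8, CHI, UGT75C1 and UGT79B1, and MYBL2 rose. Of all genes, 2.98% fell and 2.06% rose in that fit. Without vector control replicate 3, LDOX and TT19 fell and MYBL2 rose, while 3.49% of all genes fell and 1.54% rose.

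The late steps that lead to anthocyanin were lower in the overexpressor at all 3 genes measured. DFR (AT5G42800), the reductase that commits dihydroflavonols to anthocyanin, had signals of -3.69, -3.94 and -3.90 in the overexpressor and -2.68, -3.19 and -2.96 in the control. Every overexpressor array lay below every control array. DFR fell by 0.90 (SE 0.15, n = 3 per group, limma adjusted p = 0.041), a control signal 1.87 times that of the overexpressor. This gene is dim. The signal used here is already background-subtracted. In an alternative the local background was subtracted from the median spot signal with an offset of 50, which draws dim values together. The DFR difference was then -0.38. Background subtraction below means that alternative with its offset.

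LDOX (AT4G22880), the dioxygenase that forms the coloured anthocyanidin, had signals of -1.87, -2.13 and -2.16 in the overexpressor and -1.12, -1.24 and -1.06 in the control. The control arrays lay close together, with an SD of 0.0928, and all lay above the overexpressor arrays. LDOX fell by 0.91 (SE 0.11, limma adjusted p = 0.026), the smallest adjusted p of the 34 genes. TT19 (AT5G17220, GSTF12 in RefSeq), a glutathione transferase that carries anthocyanin on its way to the vacuole, had signals of 0.06, -0.22 and -0.23 in the overexpressor and 1.15, 0.79 and 0.59 in the control. The groups did not overlap, and the difference hardly moved when the background was subtracted, at -0.92. It fell by 0.97 (SE 0.17, limma adjusted p = 0.042), a control signal 1.96 times that of the overexpressor. Over the 17 alternatives run, the difference stayed between -1.18 and -0.78 for LDOX and between -1.24 and -0.82 for TT19, and each passed in 10. DFR passed in 6, with differences between -1.17 and -0.38.

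**Figure D1:**
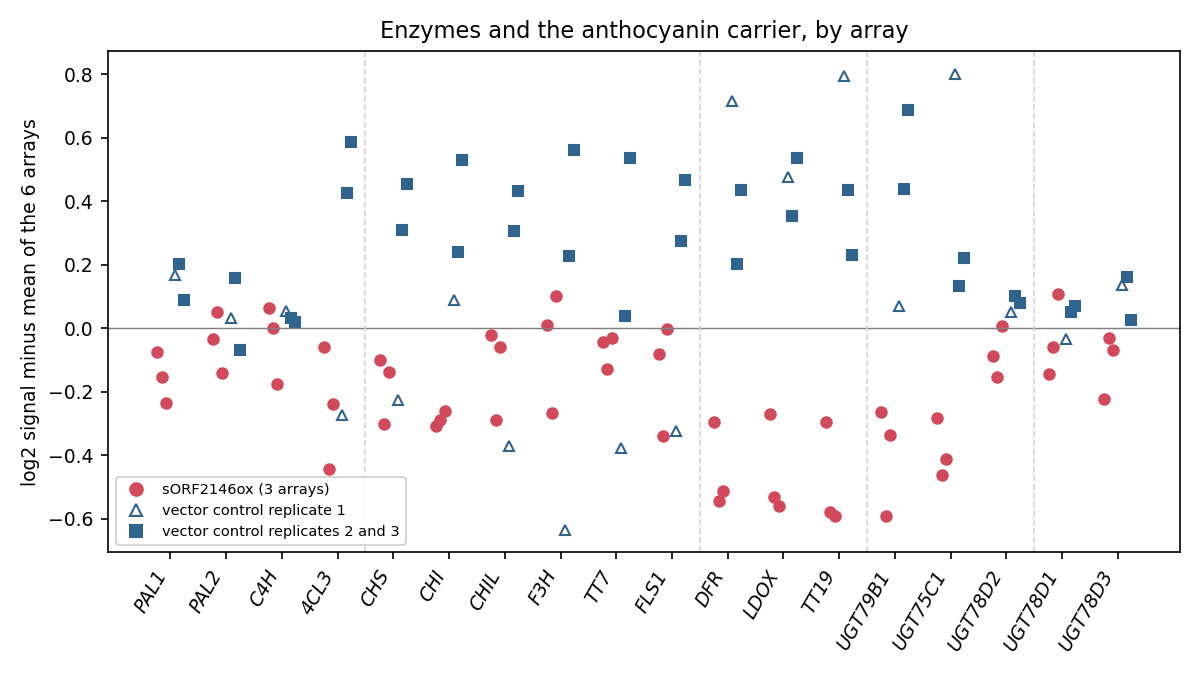
Signal of the 18 tested enzyme and transport genes on each of the 6 arrays, as the log2 signal minus the mean of the gene over the 6 arrays, with dashed lines between the steps of the pathway. All 3 overexpressor points lie below all 3 control points for 9 of the 18 genes, against 17.6% of all genes tested. These are PAL1, CHI, DFR, LDOX, TT19, UGT79B1, UGT75C1, UGT78D2 and UGT78D3, of which DFR, LDOX and TT19 passed. Vector control replicate 1 lies lowest of the control arrays for all 6 early flavonoid genes.

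Of the 4 genes that decorate the anthocyanin core, 3 were tested and 0 passed. UGT79B1 (AT5G54060, UF3GT in RefSeq), which adds xylose to the glucose on anthocyanin, had signals of -5.21, -5.53 and -5.28 in the overexpressor and -4.87, -4.50 and -4.26 in the control. UGT75C1 (AT4G14090), a glucosyltransferase of anthocyanin, had -3.50, -3.68 and -3.63 against -2.42, -3.09 and -3.00. Neither gene overlapped between groups. The differences were -0.79 (SE 0.18, limma adjusted p = 0.062) and -0.77 (SE 0.19, limma adjusted p = 0.070), and both passed without vector control replicate 1, at -0.96 and -0.56. UGT79B1 lies near the background. With background subtraction and the offset of 50, its difference was -0.10 and that of UGT75C1 was -0.38. UGT78D2 (AT5G17050), which glucosylates both anthocyanidins and flavonols and so serves both branches, did not overlap either and differed by -0.15 (95% interval -0.34 to 0.04, limma adjusted p = 0.23). At an unadjusted p under 0.05, 2 of these 3 genes were lower in limma, against 14.3% of all genes.

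Early flavonoid genes had a median difference of -0.26, with 6 of 6 below 0 and 0 that passed (1 at an unadjusted p under 0.05 in limma). CHS (AT5G13930, TT4 in RefSeq), chalcone synthase, had signals of 4.60, 4.40 and 4.57 in the overexpressor and 4.48, 5.01 and 5.16 in the control. Vector control replicate 1 lay among the overexpressor arrays, and the other control arrays lay above all of them. The difference was -0.36 (SE 0.19, 95% interval -0.83 to 0.11, limma adjusted p = 0.25). CHI (AT3G55120, TT5 in RefSeq), chalcone isomerase, was the early gene whose groups did not overlap, with 0.20, 0.22 and 0.25 in the overexpressor and 0.59, 0.75 and 1.03 in the control. Its 3 overexpressor values were nearly equal, with an SD of 0.0239, and it differed by -0.57 (SE 0.13, limma adjusted p = 0.058).

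The other early genes overlapped between groups. CHIL (AT5G05270), a non-catalytic partner that helps chalcone synthase, differed by -0.25. F3H (AT3G51240), flavanone hydroxylase, differed by -0.10, and TT7 (AT5G07990), which adds the second hydroxyl group to the B ring, by -0.13. FLS1 (AT5G08640), the main flavonol synthase, differed by -0.28. Their 95% intervals ran from -0.81 to 0.31, from -0.88 to 0.67, from -0.70 to 0.43 and from -0.83 to 0.27, so a change of either sign within them is not shown or denied. These 4 genes and CHS were lowest of the controls on replicate 1, as was CHI. Without that array the 6 differences lay between -0.67 and -0.35 with a median of -0.50, and CHI passed at -0.67 (limma adjusted p = 0.044), with CHS at -0.56 (limma adjusted p = 0.051). Without vector control replicate 3, in contrast, F3H and TT7 had differences above 0, at 0.15 and 0.10.

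Of the 4 genes of the general phenylpropanoid steps 0 passed, and their differences ran from -0.49 to -0.07. PAL1 (AT2G37040), an ammonia-lyase at the entry of the pathway, had signals of 2.79, 2.71 and 2.63 in the overexpressor and 3.03, 3.07 and 2.95 in the control. The groups did not overlap, and both were tight, with SDs of 0.0802 and 0.0580. PAL1 differed by -0.31 (SE 0.0811, limma adjusted p = 0.077). Its paralogue PAL2 (AT3G53260) differed by -0.08 (95% interval -0.32 to 0.16) and C4H (AT2G30490), the cinnamate hydroxylase, by -0.07 (95% interval -0.29 to 0.15). 4CL3 (AT1G65060), the coenzyme A ligase of the flavonoid branch, differed by -0.49 (SE 0.25, limma adjusted p = 0.23), with vector control replicate 1 again among the overexpressor arrays, and by -0.75 without that array (limma adjusted p = 0.052). Of these 4 genes 1 was lower at an unadjusted p under 0.05 in limma.

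Genes of flavonol glycosylation and their MYB activators held no gene that passed, and 0 of the 5 reached an unadjusted p under 0.05 in limma. UGT78D1 (AT1G30530), a flavonol rhamnosyltransferase, differed by -0.06 (95% interval -0.29 to 0.17). UGT78D3 (AT5G17030), a flavonol arabinosyltransferase, had signals of -5.81, -5.62 and -5.66 in the overexpressor and -5.45, -5.43 and -5.56 in the control. These did not overlap, but they lie near the background, and the difference of -0.22 (SE 0.0888, limma adjusted p = 0.17) turned to 0.15 with background subtraction and to 0.16 with normexp. MYB12 (AT2G47460), the main flavonol activator of roots, had signals of -2.56, -2.71 and -2.75 in the overexpressor and -3.54, -2.74 and -2.64 in the control. One control array lay far below the other 5 arrays, and the difference of 0.30 (SE 0.25, limma adjusted p = 0.44) was 0.02 without it. MYB111 (AT5G49330), which acts mainly in cotyledons, differed by -0.02 (95% interval -0.35 to 0.30). MYB11 (AT3G62610) was well above background on 1 of 3 overexpressor arrays and all 3 control arrays, and it differed by -0.52 (SE 0.29, limma adjusted p = 0.27), which turned to 0.16 with either background correction.

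**Figure D2:**
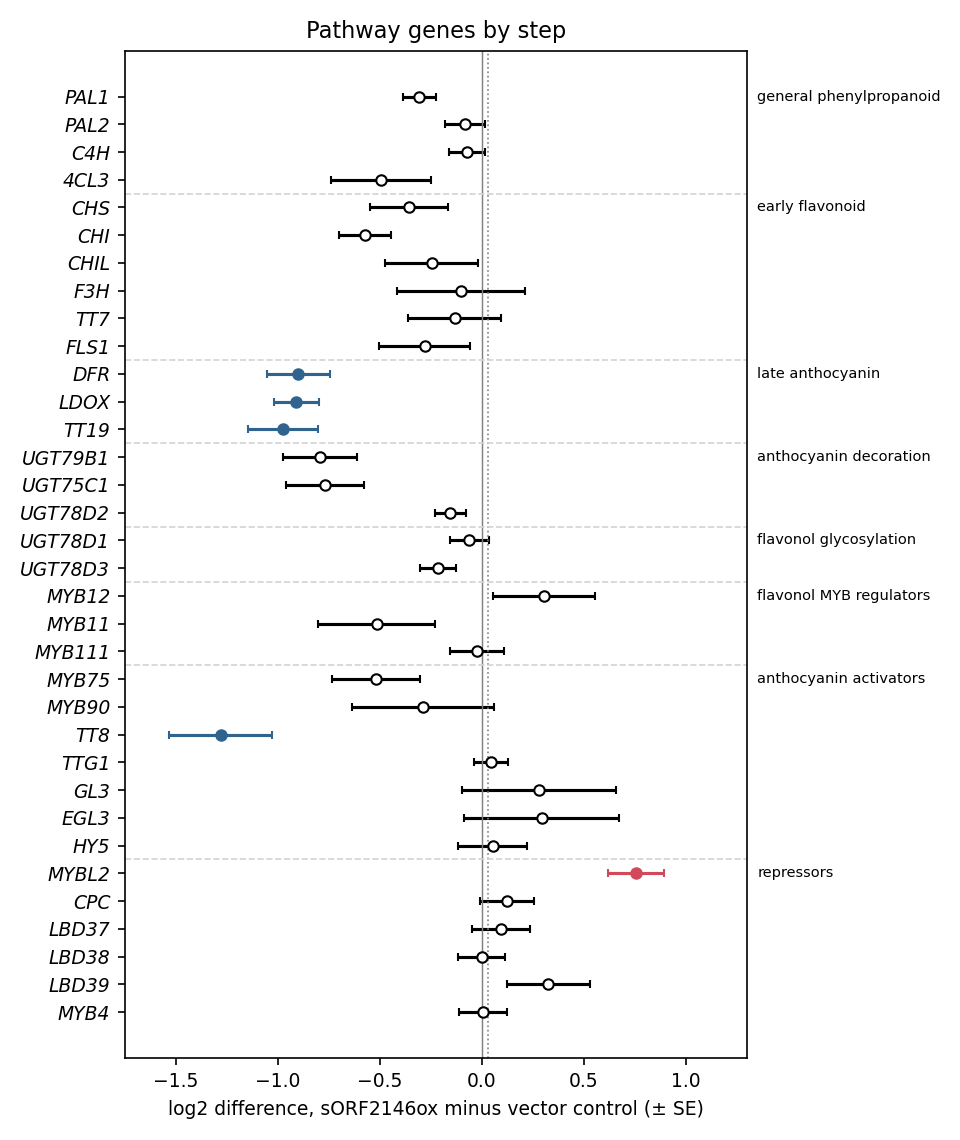
Log2 difference, overexpressor minus vector control, of the 34 tested genes with its standard error (n = 3 per group), grouped by step from top to bottom. Filled points passed at an adjusted p under 0.05, and the dotted line marks the median of all genes tested, 0.03. DFR, LDOX, TT19 and TT8 lie furthest to the left among filled points, and MYBL2 is the one filled point on the right.

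Among the 7 activators of anthocyanin genes, TT8 fell and the other 6 did not pass. TT8 (AT4G09820), the bHLH protein that switches on the late genes and its own gene, had signals of -5.29, -4.99 and -4.80 in the overexpressor and -3.23, -3.99 and -4.02 in the control. The groups did not overlap, and vector control replicate 1 was the highest of the 6 arrays, as it was for DFR, TT19 and UGT75C1. TT8 fell by 1.28 (SE 0.25, limma adjusted p = 0.049), a control signal 2.43 times that of the overexpressor and the widest difference of the 34 genes. Its adjusted p lies close to the threshold, and it passed in 6 of the 17 alternatives. The probe is dim. The TT8 difference shrank to -0.33 after subtraction of the background and to -0.30 after normexp, both with the offset of 50, and was -1.02 without vector control replicate 1.

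The MYB partners overlapped between groups. MYB75 (AT1G56650, PAP1 in RefSeq), the MYB protein whose overproduction turns plants purple, had signals of -1.99, -2.70 and -2.50 in the overexpressor and -1.83, -1.70 and -2.11 in the control. Overexpressor replicate 1 reached into the control range, and the difference was -0.52 (SE 0.21, 95% interval -1.05 to 0.01, limma adjusted p = 0.17). MYB90 (AT1G66390), its close paralogue, differed by -0.29 (SE 0.35), and by 0.05 without vector control replicate 1. TTG1 (AT5G24520), the scaffold of the complex, differed by 0.04 (95% interval -0.16 to 0.25). The bHLH genes GL3 (AT5G41315) and EGL3 (AT1G63650), which can stand in for TT8 and also act on hairs of leaf and root, differed by 0.28 (SE 0.38) and 0.29 (SE 0.38), and by -0.15 and -0.13 without vector control replicate 1. HY5 (AT5G11260), the bZIP factor that brings light to flavonoid genes, differed by 0.05 (95% interval -0.36 to 0.47).

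Of the 6 repressors, MYBL2 rose and the other 5 did not pass. MYBL2 (AT1G71030), a small MYB protein that binds TT8 and blocks the complex, had signals of 3.80, 3.92 and 3.66 in the overexpressor and 3.18, 3.15 and 2.79 in the control. Every overexpressor array lay above every control array. MYBL2 rose by 0.76 (SE 0.14, limma adjusted p = 0.044), an overexpressor signal 1.69 times that of the control. The signal lay well clear of the background, and the difference hardly moved with the background correction, at 0.82 with subtraction and 0.82 with normexp. It passed in 9 of the 17 alternatives and stayed above 0 in all of them, with 0.49 as the lowest value, under scaling to spike-in RNA.

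The other repressors had differences from -0.0013 to 0.33, with LBD38 alone below 0, and each overlapped between groups. CPC (AT2G46410), a small MYB protein that competes for the bHLH partner, differed by 0.12 (95% interval -0.20 to 0.44). LBD37 (AT5G67420), LBD38 (AT3G49940) and LBD39 (AT4G37540), nitrogen-responsive repressors of MYB75 and MYB90, differed by 0.10, -0.0013 and 0.33, and LBD39 by 0.11 without vector control replicate 1. MYB4 (AT4G38620), a repressor of the cinnamate hydroxylase gene, differed by 0.0047 (95% interval -0.28 to 0.29).

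**Figure D3:**
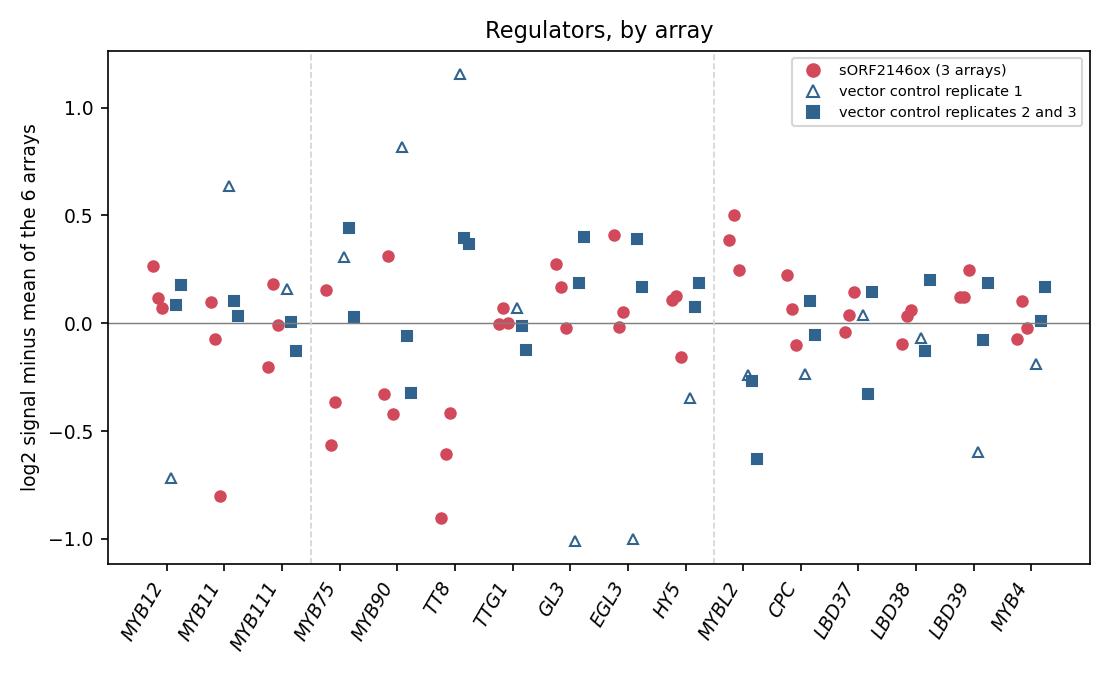
Signal of the 16 regulators on each of the 6 arrays, as the log2 signal minus the mean of the gene over the 6 arrays, with dashed lines between flavonol MYB genes, anthocyanin activators and repressors. TT8 and MYBL2 separate the groups in opposite directions, and vector control replicate 1 lies far below the other arrays for MYB12, GL3 and EGL3 and highest of the 6 for TT8, MYB90 and MYB11.

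A difference between 2 genes of one array does not change when a constant is added to that array on the log2 scale, as scaling to a percentile or to spike-in RNA does. For 4 pairs, chosen after the values were seen, this difference was compared between groups. DFR and FLS1 draw on the same dihydroflavonols. The DFR signal minus the FLS1 signal, as a deviation from its mean over the arrays, was -0.21, -0.21 and -0.51 in the overexpressor and 1.04, -0.08 and -0.03 in the control. For LDOX minus FLS1 it was -0.19, -0.19 and -0.56 against 0.80, 0.08 and 0.07. In both pairs the groups did not overlap, and vector control replicate 1 was the highest array. The group differences were -0.62 and -0.63 (each exact two-sided permutation p = 0.1, adjusted p = 0.133 over the 4 pairs), and -0.26 and -0.39 without vector control replicate 1. MYBL2 minus TT8 was 1.29, 1.11 and 0.66 in the overexpressor and -1.40, -0.66 and -0.998 in the control, a group difference of 2.04 (exact two-sided permutation p = 0.1, adjusted p = 0.133). MYBL2 was higher and TT8 lower without overlap as single genes, so this pair had to separate the groups and adds no support. TT8 minus MYB75 overlapped between groups and differed by -0.76 (exact two-sided permutation p = 0.2). With 3 arrays against 3, 0.1 is the smallest p this test can give, so no pair could pass. Each pair holds a gene already called above, so the pairs are not independent of those calls.

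Other genes of phenylpropanoid metabolism were taken from lists of enzymes and regulators outside the 35. Of 58 such genes 52 were tested, 3 fell and 0 rose, against 2.65% and 2.51% of all genes, and 12 were lower and 3 higher at an unadjusted p under 0.05 in limma, against 14.3% and 16.5%. The 3 that fell belong to monolignol synthesis, which makes the units of lignin, where 15 of 15 genes were tested and the median was -0.19. CAD5 (AT4G34230), a cinnamyl alcohol dehydrogenase at the last step, had signals of 1.38, 1.67 and 1.79 in the overexpressor and 2.56, 2.76 and 2.62 in the control. The gap between the groups was wider than the spread within either, and CAD5 fell by 1.04 (SE 0.13, limma adjusted p = 0.027). It passed in 10 of 17 alternatives and came no closer to 0 than -0.92. F5H (AT4G36220, FAH1 in RefSeq), the hydroxylase that opens the way to sinapate and syringyl lignin, fell by 0.72 (SE 0.12, limma adjusted p = 0.040), with overexpressor signals of 2.05, 1.94 and 2.07 against 2.78, 2.91 and 2.52. 4CL2 (AT3G21240), a coenzyme A ligase, fell by 0.46 (SE 0.0875, limma adjusted p = 0.047), with 2.46, 2.44 and 2.32 against 2.96, 2.88 and 2.77. None of the 3 overlapped between groups. The 4CL2 difference was -0.27 with background subtraction, and without vector control replicate 1 F5H was at -0.70 (limma adjusted p = 0.056) and 4CL2 at -0.42 (limma adjusted p = 0.062). PAL3 and PAL4, further ammonia-lyases, differed by -0.44 and -0.28 and did not pass.

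In the sinapate ester list 0 of 5 genes passed, with a median of -0.06. SNG1 (AT2G22990), which makes sinapoylmalate, the main ultraviolet screen of leaves, had signals of 2.71, 2.23 and 2.21 in the overexpressor and 1.49, 1.63 and 1.67 in the control. The groups did not overlap, and the difference was 0.78 (SE 0.16, limma adjusted p = 0.051), which passed in 3 of 17 alternatives. SNG2, the sinapoylcholine synthase of seeds, differed by -0.25. At an unadjusted p under 0.05 this list held 1 gene, and it was higher, in limma.

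Other genes that modify flavonoids had a median of -0.47, with 0 of 9 that passed and 5 that were lower at an unadjusted p under 0.05 in limma, against 14.3% of all genes. UGT73C6 (AT2G36790), a flavonol glucosyltransferase, had signals of -4.34, -3.82 and -4.24 in the overexpressor and 0.24, -0.62 and -3.38 in the control. Its control arrays spanned a far wider range than its overexpressor arrays, and the difference of -2.88 (SE 0.92) did not pass (limma adjusted p = 0.105). SCPL10 (AT2G23000), which adds sinapate to anthocyanin, differed by -1.04 (SE 0.28, limma adjusted p = 0.079), with 0.81, -0.10 and 0.35 against 1.79, 1.23 and 1.18.

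Genes that serve proanthocyanidin, the tannin of the seed coat, were mostly dim: 2 of 7 were tested, and BAN, TT12 and TT1 reached the background flag on no array. AHA10, a proton pump of the seed coat, differed by 0.44 and TT10, a laccase, by 0.02, and 0 passed (1 higher at an unadjusted p under 0.05 in limma). Among 8 further MYB, bHLH and related regulators 7 were tested with a median of -0.20 and 0 passed (2 lower at an unadjusted p under 0.05 in limma). MYB7, a repressor related to MYB4, differed by -0.44 (SE 0.0880, limma adjusted p = 0.051), and MYB114, a paralogue of MYB75, by -0.59, with 1 of 3 overexpressor arrays well above background and a turn to 0.15 under background subtraction and 0.17 under normexp, while MYB113 was not well above background on any array. Light signalling genes had a median of 0.15 with 0 of 9 that passed (1 lower and 1 higher at an unadjusted p under 0.05 in limma), and BBX22 and PIF3 differed by 0.40 and 0.31. The F-box proteins that mark ammonia-lyase or chalcone synthase for breakdown had a median of -0.13 with 0 of 5 that passed (1 lower at an unadjusted p under 0.05 in limma), and KFB39 and KFB01 differed by -0.60 and -0.40. Without vector control replicate 1, KFB01 passed at -0.61 (limma adjusted p = 0.038). In that fit CAD5 also passed, as did UGT89C1 (AT1G06000) of the flavonoid modification list, at -0.82 (limma adjusted p = 0.026), while 2.98% of all genes fell. With all arrays UGT89C1 differed by -0.60 (limma adjusted p = 0.108).

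**Figure D4:**
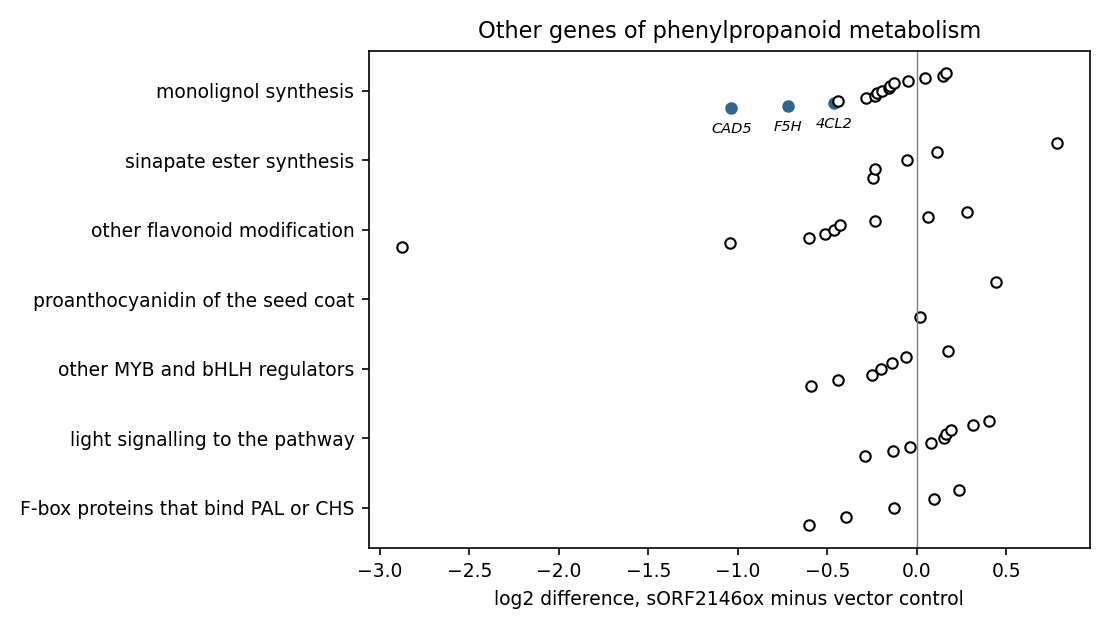
Log2 difference, overexpressor minus vector control, of the 52 tested genes outside the 35, 1 point per gene, by list. The filled points CAD5, F5H and 4CL2 passed at an adjusted p under 0.05, and the point furthest to the left is UGT73C6 at -2.88.

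After scaling to the 75th percentile, the median of 8 spike-in probes was 0.886, 1.396 and 1.347 on the overexpressor arrays. On the control arrays it was 0.959, 0.972 and 0.888. The overexpressor mean was higher by 0.27, through replicates 2 and 3, while overexpressor replicate 1 was the lowest of the 6 arrays. Scaling to the spike-in RNA lowers every difference by 0.27, and the median of all genes was then -0.24. Under that scaling 6 pathway genes fell, which were DFR, LDOX, TT19, TT8, UGT75C1 and UGT79B1, while the share of all genes that fell went from 2.65% to 7.88%. MYBL2, at 0.49, did not pass, while 0.432% of all genes rose. At an unadjusted p under 0.05 in limma 0 pathway genes were higher, against 1.68% of all genes. Under quantile normalization LDOX and TT19 fell and MYBL2 rose, with DFR at -0.80 and TT8 at -1.16. Of all genes, 2.09% fell and 3.33% rose under that normalization. The 18 enzyme and transport genes also had differences below 0 under quantile normalization. UGT78D3 lay above 0 with either background correction, F3H without overexpressor replicate 2, and F3H and TT7 without vector control replicate 3.

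**Figure D5:**
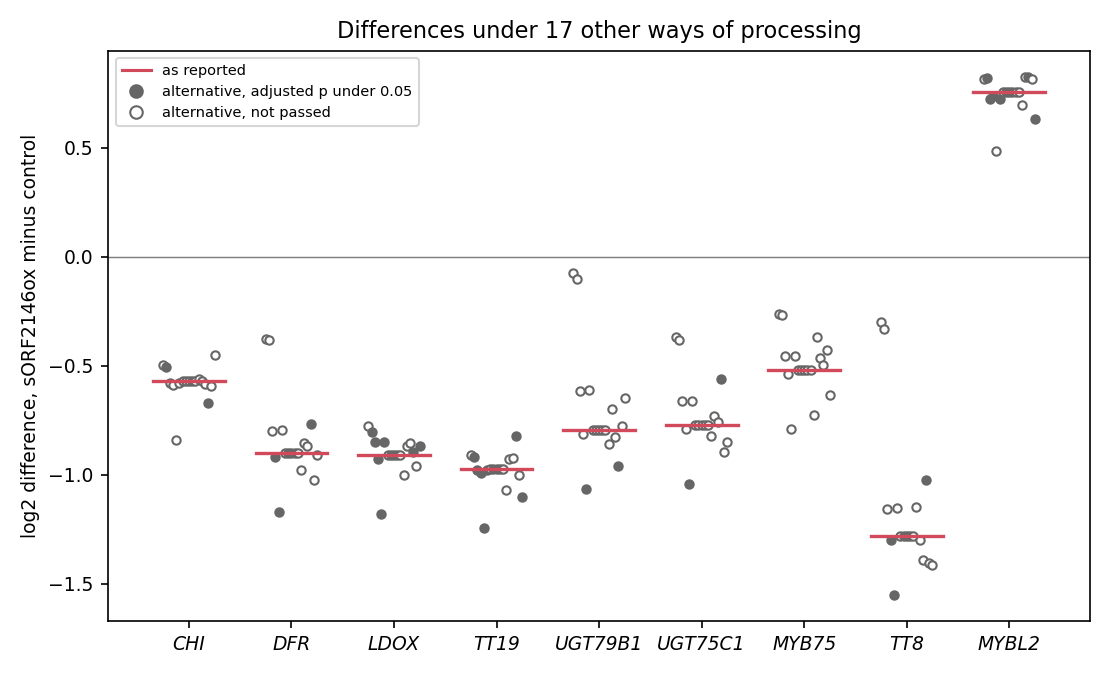
Log2 difference, overexpressor minus vector control, of 9 genes as reported (line) and under 17 other ways of processing (points, filled where the adjusted p was under 0.05). LDOX and TT19 stay between -1.24 and -0.78, while DFR, UGT79B1, UGT75C1 and TT8 come closer to 0 under the pair of background corrections with an offset of 50.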

How the data were processed

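Per the file headers, the scanner files hold spot intensity, and both they and the submitters' processing notes name Agilent Feature Extraction 11.5.1.1. The processed signal is background-subtracted and spatially detrended within each array, per the file headers. Use was also made of median spot and background intensity and of the deposited flags for background, saturation and outliers, other values that are 0 or 1. The deposited value table holds intensity with equal quartiles in every column, and its method is not given in the sources used here. Labelling with Cy3 started from 200 ng of RNA, per the labels' protocols.

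The log2 signal was reduced by each array's 75th percentile over 35635 probes. No outlier spot fell on a listed gene. A gene was tested with its brightest probe where that reached the background flag in every array of either group. The fit was limma 3.58.1 (lmFit, eBayes; R 4.3.3), with Benjamini-Hochberg adjustment over 23394 genes and a threshold of 0.05. This was tested on simulated data. Normexp and the alternative background subtraction used median signals and an offset of 50.

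All 35 loci matched the RefSeq gene table for TAIR10.1, which supplied symbols. Coordinates were not used, as the array design names another build, and sequences were not used here. The genes and lists were chosen with earlier results of these data known. Named were all 35 genes, other listed genes that passed, and up to 2 more per list by size of difference. UGT89C1 was added because it passed without vector control replicate 1. All 6 values are given for genes that passed, the next 5 by adjusted p, and PAL1, CHS, DFR, UGT79B1, MYB12, MYB75 and MYBL2. CAD5, F5H, 4CL2, SNG1, UGT73C6 and SCPL10 also have theirs, chosen after their values were seen. Alternatives covered background, scaling, filter, probe summary, variance model, replicate block and each array left out. Figures used matplotlib 3.10.9.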

Additional observations from a re-analysis of the deposited data

How the results depend on the processing

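Over all genes, 1209 calls became 4 with normexp, 188 with no filter on dim probes, 1944 with spike-in scaling and 14 with the replicate block, and 35 to 1191 with 1 array left out. The 4 pathway genes that fell became 0 with normexp, with no filter and with the replicate block, 2 with quantile normalization and with the deposited value table, and 0 to 7 with 1 array left out. Of all genes, 2.09% fell with quantile normalization, 2.08% with the deposited value table, and 0.115% to 3.49% with 1 array left out. The 1 that rose became 0 with normexp, with no filter, with spike-in scaling and with the replicate block, and 0 to 1 with 1 array left out. At an unadjusted p under 0.05 in limma, lower pathway genes numbered 4 with normexp, 8 with no filter and 9 with the block, where 5.23%, 9.96% and 12.6% of all genes were lower. The 3 other pathway genes that passed became 0 with normexp, no filter and the block. The cause was not tested. The labels do not say that replicate numbers pair the samples, and same-numbered arrays had deviations that correlated at -0.0857, -0.000468 and -0.0226. Shares of falls among all calls were 51.4% as reported, 38.5% with quantile normalization, 38.6% with the deposited value table, 94.8% with spike-in scaling, 34.5% with background subtraction and 70.7% with no filter. Where a pathway gene passed as reported or under an alternative, its sign did not differ between them. Signal over background limits DFR, TT8, UGT79B1, UGT75C1, UGT78D3, MYB11 and 5MAT.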

Other observations

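The 3 control arrays differed among themselves within the pathway, in values chosen after they were seen. Vector control replicate 1 was lowest of the controls for 6 of 6 early flavonoid genes and highest of the controls for 2 of 3 late genes. F3H had signals of 3.03, 3.89 and 4.22 in the control against 3.67, 3.39 and 3.76 in the overexpressor. GL3 had -3.38, -2.18 and -1.97 against -2.09, -2.20 and -2.39, and EGL3 had -4.25, -2.85 and -3.08 against -2.84, -3.26 and -3.20. MYB90, by contrast, was highest on that array, with -0.98, -1.86 and -2.12 in the control. CASP1, a root endodermis marker, had 0.09, 1.99 and 2.23 in the control against 2.43, 2.41 and 2.23 in the overexpressor. TIP2;3, another root marker, had -0.49, 1.01 and 1.14 in the control against -0.91, -1.87 and -0.99 in the overexpressor. Both root markers were lowest of the controls on vector control replicate 1, but TIP2;3 was lower in the overexpressor and CASP1 was higher. The groups overlapped for the other 7 of the 9 root markers. Controls were the more variable group (larger SD) for 25 of the 34 pathway genes (73.5%) and for 65.3% of all genes tested.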
